A study of Homo sapiens with 12 samples.

Results

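The genes that encode IL7R and the other receptors built around the common gamma chain were followed through 8 lists of chromatin immunoprecipitation sequencing (ChIP-seq) regions. The 8 genes were IL7R, IL2RA, IL2RB, IL2RG, IL4R, IL9R, IL15RA and IL21R, out of 20037 protein-coding genes. A region was counted for a gene when its summit, the position of highest signal, lay in the gene's span or within 50 kb of it, on hg38. All lists together held 11908 regions on chromosomes 1 to 22, X and Y, and 21 of them met this rule.

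SUPT-1, a cell line long established from human T-cell acute lymphoblastic leukaemia, carried a doxycycline-inducible STAT5B. The WT line overexpressed wild-type STAT5B and the N642H line the mutant STAT5B_N642H, an activating change of the domain by which STAT5B dimerises. All groups, the untreated ones included, came from doxycycline-induced cultures. "Untreated" means without prednisolone, and "prednisolone" means 250 µg/ml of this synthetic glucocorticoid for 16 hours. Each combination of line, treatment and antibody (NR3C1, the glucocorticoid receptor, or STAT5B) was 1 library, and 4 input libraries were not analysed here. No group had a replicate, so no difference between groups could be tested. The labels do not say whether a line was 1 clone, and peak lists hold no expression values against which the cell type could be checked.

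IL7R is the alpha chain that binds interleukin 7, a survival factor of developing and mature T cells. IL2RG, the common gamma chain, pairs with it and with the private chains of the interleukin 2, 4, 9, 15 and 21 receptors. The gamma chain carries the kinase JAK3 and the partner chains JAK1, and receptor engagement leads to phosphorylation of STAT5, which then binds DNA as a dimer. Glucocorticoids are known to raise IL7R transcription in T cells through NR3C1, while the same hormones kill many lymphoid cells.

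The 2 untreated NR3C1 lists held 2 regions each. With prednisolone NR3C1 had 995 regions in the WT line and 2888 in the N642H line. STAT5B had 2267 and 4542 regions in the untreated WT and N642H lines, and 766 and 446 with prednisolone. The ChIP depth recovered from the deposited values lay between 4.13 and 8.31 tags per kb in the 6 long lists, and the weakest regions outside high local background rested on 6 to 9 tags at the summit. A gene without a region is therefore one at which nothing was called at this depth.

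Regions at the receptor genes lay beside the genes. None of the 21 summits fell inside the span of a receptor gene, although the region at the IL7R start reached into it. The 21 regions make up only 12 separate sites. No share over other genes is set beside this count, so it is not shown to be particular to these genes. IL7R had 12 of the 21 regions, IL2RG 4, IL2RA 2, IL2RB 2 and IL9R 1. IL4R, IL15RA and IL21R had none in any of the 8 lists. IL15RA is 31.9 kb from IL2RA, and IL4R is 37.4 kb from IL21R, so each of these pairs shares part of its flanking sequence.

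**Figure D1:**
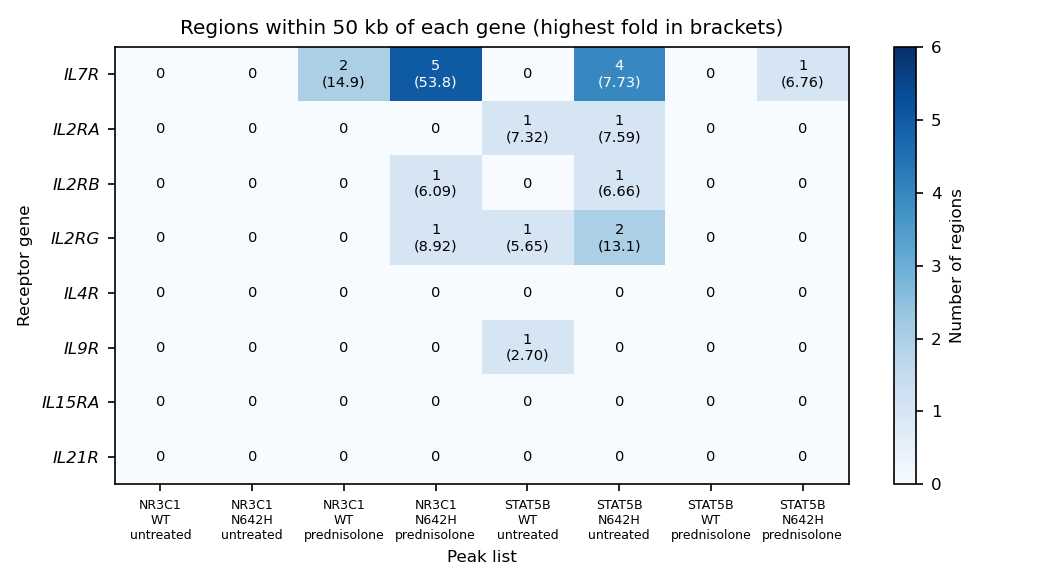
Number of regions within 50 kb of each receptor gene (rows) in each of the 8 peak lists (columns), by colour and number, with the highest fold enrichment in brackets. IL7R carries up to 5 regions in a list, and the rows of IL4R, IL15RA and IL21R are at 0 throughout.

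Where the STAT5B regions lay on promoters, most of those promoters belonged to neighbouring genes. The promoter windows of RefSeq (GRCh38.p14) hold 250 bases before and 50 bases after a transcription start, and 7 of the 8 receptor genes have an entry there. Of the 12 STAT5B regions, 6 overlapped a promoter window, and of the 9 NR3C1 regions 0 did. Over whole lists, 41.2% and 42.6% of STAT5B regions of the untreated WT and N642H lines overlapped such a window, 45.2% and 35.7% of those with prednisolone, and 3.92% and 7.51% of NR3C1 regions of the prednisolone-treated WT and N642H lines. One of the 6 was on a receptor gene's own promoter, that of IL7R. The others were on the promoters of RBM17 (2 regions), SNX12 (2 regions) and C1QTNF6 (1 region).

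The promoters below show where these calls fell. They are written 5′ to 3′ along the gene, and capitals mark the bases inside the STAT5B region of the untreated N642H line. IL7R is on the plus strand at chr5:35856641-35856940, RBM17 on the plus strand at chr10:6088784-6089083, and SNX12 on the minus strand at chrX:71068285-71068584.
IL7R: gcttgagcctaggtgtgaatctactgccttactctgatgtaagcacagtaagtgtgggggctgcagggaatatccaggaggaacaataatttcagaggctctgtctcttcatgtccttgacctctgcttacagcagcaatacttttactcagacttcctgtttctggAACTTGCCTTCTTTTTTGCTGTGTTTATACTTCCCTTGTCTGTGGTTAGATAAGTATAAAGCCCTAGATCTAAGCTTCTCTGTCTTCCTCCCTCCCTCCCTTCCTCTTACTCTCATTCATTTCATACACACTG
RBM17: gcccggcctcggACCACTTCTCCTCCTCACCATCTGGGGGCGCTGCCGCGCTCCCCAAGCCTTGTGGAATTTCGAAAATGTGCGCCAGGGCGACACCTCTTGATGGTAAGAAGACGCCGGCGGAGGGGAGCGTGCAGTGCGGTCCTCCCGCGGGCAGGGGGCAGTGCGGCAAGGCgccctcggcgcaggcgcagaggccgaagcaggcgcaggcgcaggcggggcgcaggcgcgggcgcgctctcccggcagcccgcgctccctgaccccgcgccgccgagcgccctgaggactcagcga
SNX12: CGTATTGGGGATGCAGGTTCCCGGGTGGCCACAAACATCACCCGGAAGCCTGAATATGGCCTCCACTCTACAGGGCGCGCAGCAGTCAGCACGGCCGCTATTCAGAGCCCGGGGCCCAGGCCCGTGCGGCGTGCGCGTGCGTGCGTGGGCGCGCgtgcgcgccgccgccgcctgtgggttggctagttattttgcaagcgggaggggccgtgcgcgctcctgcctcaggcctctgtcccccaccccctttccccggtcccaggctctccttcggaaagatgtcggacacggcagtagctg
The IL7R region covered 133 of the 300 bases, and its summit was 5 bp before the start. In RBM17 it covered 163 bases, with the summit 177 bp before the start, and in SNX12 154 bases, with the summit 231 bp before it. The core STAT motif TTCNNNGAA (both strands are the same) was absent from these 3 windows and from that of C1QTNF6, and 6.79% of 22199 promoter windows of protein-coding genes hold it. Only the windows were searched. The N642H regions at IL7R, SNX12 and C1QTNF6 reach beyond them, and the sequence there was not read. Among the receptor genes it was found once, as TTCGGCGAA, 127 bp before a start of IL15RA, a gene with no STAT5B region. The pair of half-sites ACANNNTGT, part of the glucocorticoid response element and also the same on both strands, was in none of the 4 windows, and 3.98% of all windows hold it.

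IL7R was flanked by 6 separate sites, 4 of them called with both antibodies. Seen from its start at position 35856891 on chromosome 5 (gene ID 3575, span 35856891 to 35879603, plus strand), 1 site lay 45.5 kb upstream, 1 lay 2.3 kb upstream and 1 was at the start itself. The other 3 lay 27.8, 43.1 and 68.0 kb downstream of it, which puts them 5.1, 20.4 and 45.3 kb beyond the other end of the gene. The first lies in SPEF2, a gene of sperm flagellum assembly, and the last in CAPSL, a gene for a calcium-binding protein. The sites 2.3 kb upstream and 43.1 kb downstream are between genes. Summits of the downstream one were 4237 to 4307 bp from CAPSL, which is nearer to them than IL7R.

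**Figure D2:**
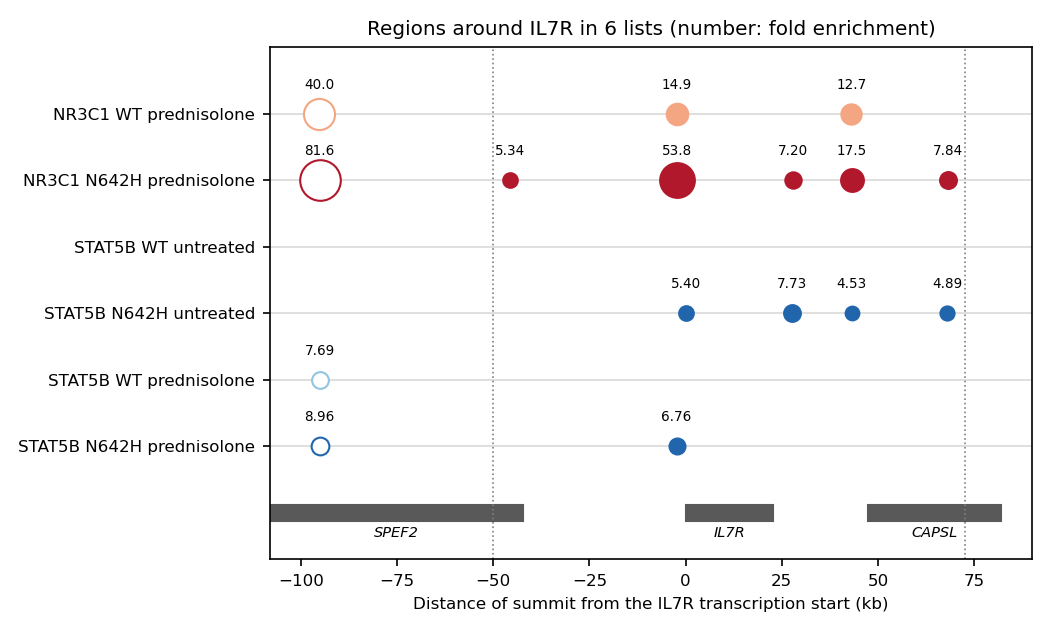
Regions around IL7R by distance of the summit from the transcription start (kb), with 1 line per peak list, and gene spans as grey bars. The area of a circle grows with the fold enrichment printed above it, open circles lie outside the 50 kb window (dotted lines), and the 2.3 kb upstream site has folds of 14.9 and 53.8 with NR3C1 in the WT and N642H lines.

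Within the window, NR3C1 with prednisolone was strongest at the site 2.3 kb upstream of IL7R in both lines. In the WT line this region (chr5:35854442-35854736) had a fold of 14.9 over the local background and a −log10 q of 36.8. It ranked 142 of 995 and rested on 49 tags at the summit (95% Poisson interval 36.3 to 64.8). In the N642H line the region (chr5:35854237-35854773) had a fold of 53.8 and a −log10 q of 189, ranked 54 of 2888 and rested on 124 tags (103 to 148). The 2 summits were 9 bp apart. Neither untreated NR3C1 list had a region at IL7R or at any other receptor gene. Among all protein-coding genes 0.0449% had one in each of those lists.

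The site 43.1 kb downstream, nearer to CAPSL than to IL7R, was the other NR3C1 site called in both lines. Its fold was 12.7 in the WT line, on 33 tags (22.7 to 46.3), and 17.5 in the N642H line, on 49 tags (36.3 to 64.8). These 2 tag intervals overlap, while those of the upstream site do not. Tags of the lines were counted over unlike fragment lengths, as given below, so these intervals alone do not compare the lines. The other 3 NR3C1 regions were called in the N642H line alone. They had folds of 5.34 (45.5 kb upstream, 14 tags), 7.20 (27.8 kb downstream, 16 tags) and 7.84 (68.1 kb downstream, 21 tags). These 3 ranked 1351 to 2548 of 2888, and when the N642H list kept only its 995 strongest regions, the length of the WT list, each line had 2 IL7R regions, at the same sites. Thus 2 of 5 NR3C1 regions at IL7R in the N642H line overlapped a WT region, against 30.7% of that whole list, and both WT regions overlapped an N642H region, against 89.9%.

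The N642H library gave more tags than the WT library at most shared NR3C1 regions, so the upstream site was set against them. Tags at a summit were counted over the fragment length. Taken from the narrowest region, that was 82 bp in the WT and 137 bp in the N642H library. Recovered depth was 7.50 and 4.82 tags per kb. Raw tags of the lines are therefore not on the same scale, and the ratio is read only against other shared regions. Over the 890 overlapping regions with solved tags, the median ratio of N642H to WT tags was 1.40 (quartiles 1.14 and 1.68). At the site 2.3 kb upstream of IL7R the ratio was 2.53 (exact 95% interval from the 2 counts 1.80 to 3.60), and 40 of the 890 regions (4.49%) had one at least as high. At the downstream site it was 1.48 (0.936 to 2.38), near the median. The interval covers counting error only, with 1 library per line, and this comparison was chosen after the values had been seen.

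IL7R was among the genes with many NR3C1 regions. At least 5 regions within 50 kb were found for 44 protein-coding genes in the N642H line (0.220%), a count that includes neighbours sharing the same regions. At least 2 were found for 183 genes in the WT line (0.913%).

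A stronger NR3C1 site lay outside the 50 kb window, 95.1 kb upstream of the IL7R start and inside SPEF2. There NR3C1 had a fold of 40.0 in the WT line (133 tags, rank 10 of 995) and 81.6 in the N642H line (177 tags, rank 14 of 2888). STAT5B was called at the same place with prednisolone in both lines, with folds of 7.69 (26 tags) and 8.96 (14 tags), and in neither untreated line. Its N642H to WT ratio of NR3C1 tags was 1.33, a value that 57.3% of shared regions reached.

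**Figure D3:**
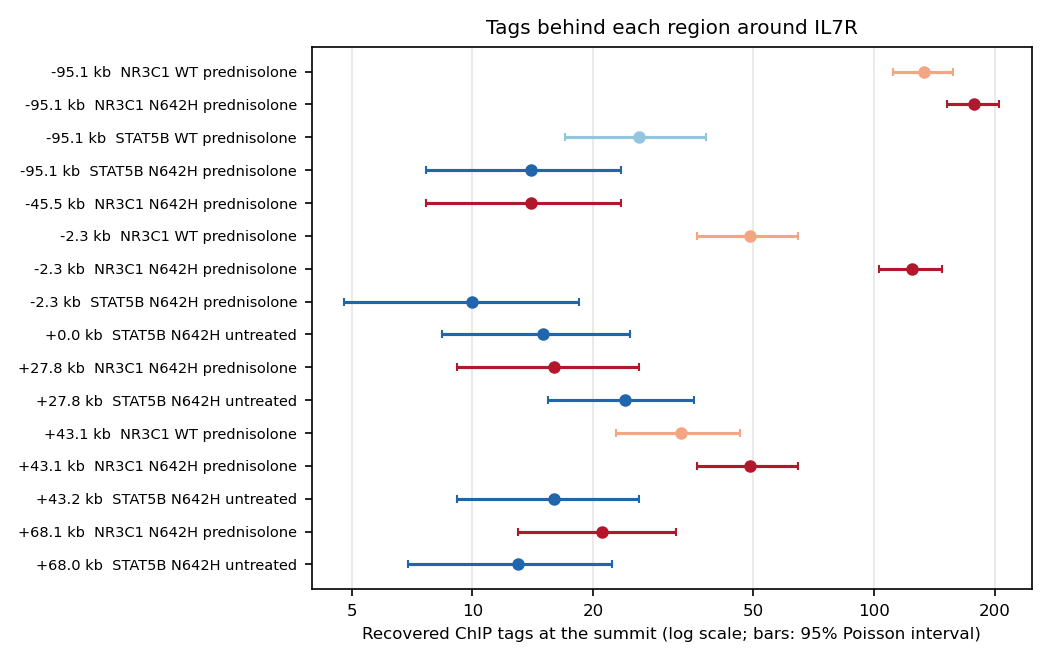
Recovered ChIP tags at the summit (log scale) of every region around IL7R, ordered by distance from the transcription start, with 95% Poisson intervals that cover counting error only. NR3C1 at −95.1 and −2.3 kb in the N642H line has 177 and 124 tags, and STAT5B regions have 10 to 26.

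STAT5B at IL7R was called in the N642H line and not in the WT line within 50 kb. Untreated N642H cells had 4 regions. Of these, 0 overlapped an untreated WT region, and over the whole list only 29.8% did. The one at the start (chr5:35856808-35857107) had a fold of 5.40 on 15 tags (8.40 to 24.7), and the strongest, 27.8 kb downstream (chr5:35884541-35884757), a fold of 7.73 on 24 tags (15.4 to 35.7). The sites 43.2 and 68.0 kb downstream had folds of 4.53 (16 tags) and 4.89 (13 tags). The strongest ranked 615 of 4542 by −log10 q, with a value of 12.7 against a list median of 6.70. The other 3 ranked 2985 to 3880, and their folds lay below the list median of 6.13. When every STAT5B list kept only its 446 strongest regions, none of them was left. At least 4 STAT5B regions were found for 391 protein-coding genes (1.95%) in that list.

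The 3 downstream STAT5B regions of untreated N642H cells all overlapped an NR3C1 region of the prednisolone-treated N642H line, and the region at the start did not. Over the whole list 17.7% of STAT5B regions did so. Seen from NR3C1, 3 of its 5 regions at IL7R in that line lay at an untreated STAT5B region, against 27.8% of its whole list. The summits of both factors were 55, 16 and 56 bp apart, with a median of 41 bp (quartiles 19 and 87) over all 805 such overlaps. One of the 3, the site 43.1 kb downstream, was also an NR3C1 region of the WT line.

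With prednisolone, none of the 4 STAT5B regions was called again in the N642H line. Over all receptor genes this held for the 8 regions of that list, against 6.87% of the whole list called again. The list with prednisolone held 446 regions against 4542, and its recovered depth was 4.13 tags per kb against 6.28. A different site was called instead, 2.3 kb upstream (chr5:35854509-35854610), with a fold of 6.76, a −log10 q of 5.03 and 10 tags (4.80 to 18.4). It is the site of the strongest NR3C1 region within the window, and the summits of both factors were 13 bp apart. Over that list 53.6% of STAT5B regions overlapped an NR3C1 region. The local background at this site was 2.02 times the genome background in the STAT5B library and 2.01 times in the NR3C1 library, and the sources used here do not state which input was used for which list. The WT line had no STAT5B region there with or without prednisolone.

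IL2RG, the common gamma chain itself (gene ID 3561, chrX:71107404-71111577, minus strand), had its strongest STAT5B region on a neighbour's promoter. In untreated N642H cells this region (chrX:71068431-71068729) had a fold of 13.1 on 25 tags (16.2 to 36.9) and ranked 139 of 4542. It lay 38.8 kb from IL2RG, on a promoter window of SNX12, a sorting nexin gene. The start of that window is inside the SNX12 span, and the summit was 4861 bp from the span's end, where SNX12 has another window. Untreated WT cells had an overlapping region with a fold of 5.65 on 10 tags (4.80 to 18.4). The ratio of tags was 2.50 (exact 95% interval 1.16 to 5.83). Over 1392 shared STAT5B regions the median was 1.45 (quartiles 1.23 and 1.73), and 3.02% were at least as high as here. The interval holds that median, and this comparison too was chosen after the values had been seen. Tags were counted over unlike fragment lengths, 77 bp in the WT and 156 bp in the N642H library by the narrowest region.

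A second IL2RG site lay 4.0 kb from the gene, at the downstream end of FOXO4, which encodes a forkhead transcription factor held in check by AKT. NR3C1 was called there in prednisolone-treated N642H cells (chrX:71103278-71103522) with a fold of 8.92 on 14 tags (7.65 to 23.5). STAT5B was called there in untreated N642H cells with a fold of 6.57 on 12 tags (6.20 to 21.0). The summits were 18 bp apart and lay 124 and 142 bp before the end of FOXO4. The WT line had neither.

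**Figure D4:**
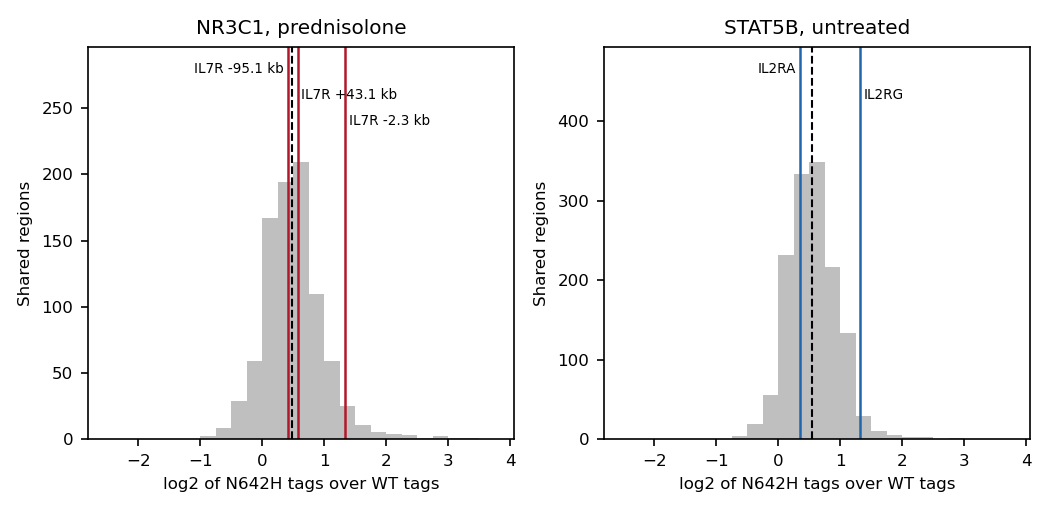
Histograms of the log2 ratio of N642H to WT tags at the summits of shared regions, for NR3C1 with prednisolone (890 regions) and untreated STAT5B (1392 regions). Dashed lines are the medians (ratios of 1.40 and 1.45), coloured lines the regions near receptor genes, and IL7R at −2.3 kb (2.53) and IL2RG (2.50) lie in the upper tails. The 95% interval of IL2RG, 1.16 to 5.83, holds the median. Tags of the lines were counted over unlike fragment lengths.

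IL2RA (gene ID 3559, chr10:6010689-6062367) encodes the alpha chain of the high-affinity interleukin 2 receptor and is a textbook STAT5 target, with known STAT5 elements around the gene. No STAT5B region lay in it. The regions counted for it were 26.5 kb away on the promoter of RBM17, a splicing factor gene, with a fold of 7.32 on 11 tags (5.49 to 19.7) in untreated WT cells and 7.59 on 14 tags (7.65 to 23.5) in untreated N642H cells. Their tag ratio was 1.27 (exact 95% interval 0.537 to 3.10). The interval holds the median of 1.45 over shared STAT5B regions. At 11 and 14 tags it is too wide to tell whether this site differed from those regions.

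IL2RB (gene ID 3560, chr22:37125838-37175118), the beta chain shared by the interleukin 2 and 15 receptors, had 2 regions, both in the N642H line. STAT5B in untreated cells had a fold of 6.66 on 19 tags (11.4 to 29.7) on the promoter of C1QTNF6, 24.5 kb away. NR3C1 with prednisolone had a fold of 6.09 on 10 tags (4.80 to 18.4) in SSTR3, a somatostatin receptor gene, 43.9 kb away. The single IL9R region (chrX:156030589-156030730, 17.6 kb from the gene) was called for STAT5B in untreated WT cells, with a fold of 2.70 on 104 tags. Its local background was 59.3 times the genome background of that library, and no other region at a receptor gene exceeded 3.64 times. IL9R lies in a part of X with an identical copy on Y, so reads from either copy cannot be told apart, and no region was called at the Y copy.

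Across all receptor genes, untreated STAT5B had 3 regions in the WT line and 8 in the N642H line. Of the 3, those on RBM17 and SNX12 overlapped an N642H region (61.4% of the whole WT list did), and so did 2 of 8 in the other direction (29.8%). None of the 3 was called again with prednisolone (19.9% of the list) or lay at an NR3C1 region of the WT line (7.19%).

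By list, the count of receptor genes with a region can be read against all protein-coding genes. With NR3C1 and prednisolone it was 1 of 8 in the WT line (IL7R; 6.44% of all genes) and 3 of 8 in the N642H line (IL7R, IL2RB, IL2RG; 16.7%). For untreated STAT5B it was 3 of 8 in the WT line (IL2RA, IL2RG, IL9R; 23.2%) and 4 of 8 in the N642H line (IL7R, IL2RA, IL2RB, IL2RG; 39.4%). With prednisolone STAT5B was at 0 of 8 in the WT line (9.61%) and 1 of 8 in the N642H line (IL7R; 4.84%). The 4 of 8 of untreated N642H cells is near the share of all genes, and with 8 genes each count moves in large steps. The median number of regions per receptor gene was 0 in every list but that of untreated STAT5B in the N642H line, where it was 0.5, and 0 over all genes in all 8 lists.

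The genes of the signalling chain below these receptors were counted in the same way. Of 16 such genes (the JAK kinases, STATs, CISH and SOCS inhibitors, phosphatases and the related receptor CRLF2), 5 had an NR3C1 region with prednisolone in the WT line (6.44% of all protein-coding genes) and 9 in the N642H line (16.7%). STAT5B was at 7 of 16 in untreated WT cells (23.2%) and 14 of 16 in untreated N642H cells (39.4%), and at 3 (9.61%) and 5 of 16 (4.84%) with prednisolone. Each of these 6 counts is a larger share than that of all genes, and neighbouring genes among the 16 share regions. JAK1, the kinase that partners IL7R, had NR3C1 regions inside the gene with folds of 8.68 in WT and 17.5 in N642H, and a STAT5B region of fold 5.89 in untreated N642H cells. SOCS1, an inhibitor of JAK kinases, had the highest folds, with NR3C1 at 34.4 and 95.5, 30.0 kb from the gene. For SOCS3, another inhibitor, the strongest untreated STAT5B regions of the WT and N642H lines were at different places. In WT cells the region lay 17.7 kb from the gene, with a fold of 4.95. In N642H cells it lay inside the gene, with a fold of 17.7. STAT3, STAT5A and STAT5B stand side by side and shared 1 NR3C1 region, inside STAT5B, with folds of 20.5 in both lines.

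Of the ligand genes IL2, IL4, IL7, IL9, IL15, IL21 and TSLP, 2 of 7 (IL21 and TSLP) had an untreated STAT5B region in each line, against 23.2% (WT) and 39.4% (N642H) of all genes. None of the 7 had an NR3C1 region, against 6.44% and 16.7% of all genes with prednisolone, and with 7 genes such shares amount to about 0 or 1 gene. TSLP, whose receptor contains IL7R, had folds of 9.22 in WT and 5.06 in N642H cells, at 14.2 kb, and 5.07 in N642H cells with prednisolone. Of 30 receptor genes for other cytokines, 5 had an NR3C1 region with prednisolone in the WT line (6.44% of all genes) and 11 in the N642H line (16.7%), larger shares than over all genes. An untreated STAT5B region was near 4 of the 30 in the WT line (23.2%) and 8 in the N642H line (39.4%), and 0 had one with prednisolone in either line (9.61% and 4.84%), smaller shares than over all genes. The highest NR3C1 fold among them was at IL1R1, an interleukin 1 receptor gene, with 15.8 in WT and 41.5 in N642H, 6.1 kb from the gene. The interferon and interleukin 10 receptor genes IFNAR1, IFNAR2 and IL10RB shared 1 NR3C1 region, inside IL10RB, with folds of 7.78 and 11.3. All of them are among the 5 and the 11 genes, so those counts stand for fewer separate regions than genes.

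**Figure D5:**
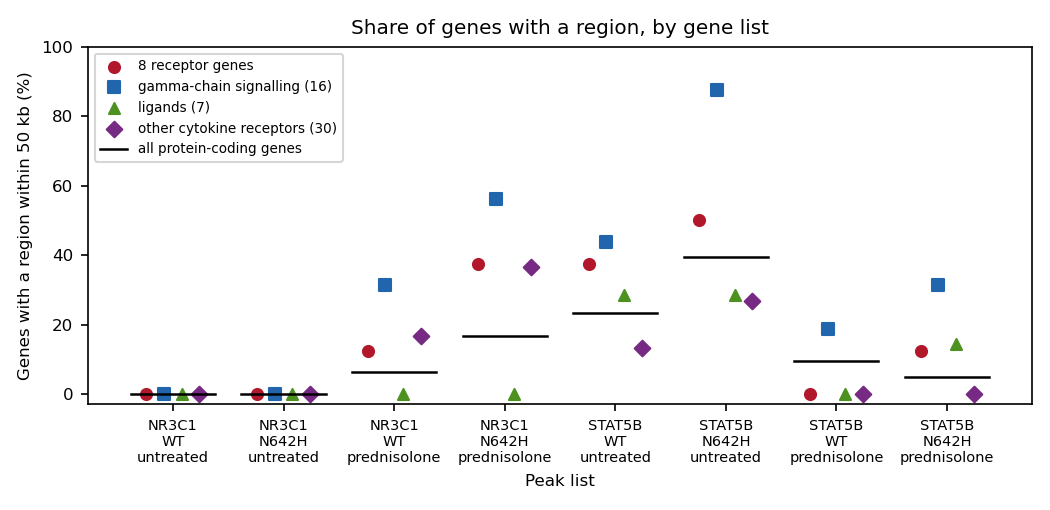
Share of genes with a region within 50 kb (%), for the 8 receptor genes, 16 signalling genes, 7 ligand genes and 30 other cytokine receptor genes, in each peak list. Black bars give all protein-coding genes (up to 39.4%), and 14 of 16 signalling genes have a STAT5B region in untreated N642H cells.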

How the data were processed

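ChIP-seq regions of 8 libraries (1 per group) were used, and 4 input libraries were not analysed here. Per the submitters' processing notes, reads were aligned and peaks called with BWA and MACS2 on hg38, and versions are not given in the sources used here. The authors deposited, per peak, the span, the summit, a score equal to 10 times −log10 q without decimals, a fold enrichment (a ratio of ChIP to local signal), and −log10 p and −log10 q, with −log10 q of at least 2. All are the authors' values, and no p-value was recomputed. Where values from several lists are given together, they describe each list.

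Regions on chromosomes 1 to 22, X and Y were linked to protein-coding genes of RefSeq GRCh38.p14 by summit, within 50 kb of the span, and exons and introns were not analysed here. Regions sharing at least 1 bp counted as overlapping. Tags at a summit were solved from fold, with a pseudocount of 1, and −log10 p under the Poisson formula of MACS2 (Python 3.11.15, scipy 1.17.1). With prednisolone in WT cells 1 tag counted as 0.894 (NR3C1) or 0.849 (STAT5B) in the pileup, and as 1 in the other 4 long lists. On simulated peaks, tags were recovered in 100% of 173 (step 1) and 219 (smaller step) cases. The simulated peaks held no tag counts as high as those of the strongest regions or as low as those of the weakest. They also held no high local background, so recovery in such regions was not tested. Genome background was the lowest local background shared by at least 5 peaks, and 10 times that marked high background. Depth in tags per kb took the fragment length from the narrowest peak. Poisson and Clopper-Pearson 95% intervals cover counting error only, since each group was 1 library. Tags carry no molecular identifiers.

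Receptor genes were all named. Every region was given, up to 6 per gene and list. Of each list of pathway genes up to 6 by highest −log10 q could be named, besides the 5 genes nearest to IL7R in pattern and the genes nearest to each region. The genes and lists were chosen with earlier results of these data known. Alternatives changed the window, the −log10 q or fold minimum, list length, high-background regions and the overlap rule.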

Additional observations from a re-analysis of the deposited data

How the results depend on the processing

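No paired analysis was possible because each group held 1 library. Of 24 counts per setting, all 24 were unmoved (within 1.5 times) without high-background regions, 21 with −log10 q of at least 5, 22 with fold of at least 5, 18 at 100 kb, 14 with equal list lengths (995 NR3C1, 446 STAT5B regions) and 11 at 20 kb. Without high-background regions, untreated STAT5B in WT went from 3 regions at 3 genes to 2 at 2, still within 1.5 times. Only 1 of the 21 regions at receptor genes had high background, so most counts could not move in that setting. Counts of 0 could not move in any setting that only removed regions. The 6 overlap counts were unmoved with 50% overlap and with summits within 200 or 500 bp. At 20 kb, NR3C1 regions at receptor genes numbered 1 in WT (1 at IL7R) and 3 in N642H (2 at IL7R), each line sharing 1 with the other. Untreated STAT5B had 1 region at 1 gene in WT, 0 shared, and this was the IL9R region of high background. In N642H it had 3 at 2 genes (2 at IL7R), 2 of them at NR3C1 regions. With equal lengths, NR3C1 in N642H had 2 regions at 1 gene, both at IL7R. Untreated STAT5B had 1 region at 1 gene in each line, 0 shared, 0 at IL7R and 0 at NR3C1 regions. In WT this was again the IL9R region of high background. With −log10 q of at least 5, untreated STAT5B in N642H had 2 regions at IL7R and 2 at NR3C1 regions, and 1 WT region was shared. A fold of at least 5 also left 2 and 2. At 100 kb, STAT5B with prednisolone had 1 region at 1 gene (IL7R, 1) in WT and 2 in N642H, 2 of them at IL7R and 2 at NR3C1 regions. With folds in place of tags, an alternative chosen after seeing the data, 2.47% of shared NR3C1 regions had a ratio at least as high as the site 2.3 kb upstream of IL7R, 17.2% as the site 95.1 kb upstream and 2.08% of STAT5B regions as the IL2RG site. Tags of 6 to 9 at the weakest regions limit what could be called.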

Other observations

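Few genes had a region in the same 4 lists as IL7R (NR3C1 with prednisolone in both lines, and STAT5B in N642H cells with and without prednisolone) and in no other. There were 23 besides IL7R within 50 kb, or 0.115% of protein-coding genes. Neighbours were not left out of this count, so it can include genes that share regions with IL7R or with each other. At 100 kb, IL7R itself also had a STAT5B region in prednisolone-treated WT cells. Likeness was measured as the Euclidean distance over the 8 lists of log2(1 + the highest −log10 q within 50 kb), leaving out genes within 200 kb of IL7R. The 5 nearest were NUP107 and RAP1B, which share the same regions on chromosome 12 (distance 1.02), TG (1.59), KLF9 (2.27) and ANKRD34A (2.32). KLF9, a glucocorticoid-induced transcription factor gene, had NR3C1 at −log10 q of 103 in the WT line and 404 in the N642H line, and STAT5B at 17.1 and 13.7 in N642H cells without and with prednisolone. For IL7R the 4 values were 36.8, 189, 12.7 and 5.03.

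A STAT5B region of untreated N642H cells lay 69.3 kb from IL2RB, outside the 50 kb window. Its fold was 6.21 on 28 tags (95% Poisson interval 18.6 to 40.5), and it was 180 bp from RAC2, a small GTPase gene of blood cells.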
